A study of Arabidopsis thaliana with 6 samples.

Results

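The floral organ identity genes of *Arabidopsis thaliana* were followed in inflorescences of a quadruple mutant and of wild-type Col-0. The 10 genes were taken by their gene identifiers: *AP1*, *CAL* and *AP2* of class A, *AP3* and *PI* of class B, *AG* of class C, and *SEP1*, *SEP2*, *SEP3* and *SEP4* of class E. All 10 were among the 21799 genes listed with values, and all 10 passed the filter on low values. The quadruple mutant combines the *stk*, *bee1* and *bee3* mutations with *ces-4*, a T-DNA insertion allele of *CES*. The sample titles and the study name *ces-4*, whereas the extraction protocol in the sample records names another *ces* allele. Wild type was Col-0, and the study gives Col-0 as the ecotype of all its plants. Inflorescences up to stage 12 of both genotypes, from plants grown in long days at the same temperature, gave 3 biological replicates each, and every replicate was RNA of a pool of plants. The question was which genes differ before fertilization in plants that lack the MADS-domain factor STK and the bHLH factors CES, BEE1 and BEE3.

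In the ABCE model, combinations of gene activities set the identity of each whorl of a flower. A with E activity gives sepals, A with B and E gives petals, B with C and E gives stamens, and C with E gives carpels. All of these genes except *AP2* encode MADS-domain factors, which act together in protein complexes that bind paired sites in DNA. STK is a MADS-domain factor of the same clade as AG and forms complexes with SEP proteins in ovules, where it sets ovule identity together with SHP1 and SHP2.

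None of the 10 organ identity genes was called as different between the quadruple mutant and wild type. Their log2 fold changes (quadruple mutant over wild type) lay between -0.11 for *SEP1* and 0.21 for *AP1*, which was the gene with the largest difference. *AP1* and *SEP3* were higher in every mutant library than in every wild-type library and *SEP1* was lower, and none of these differences was called. Such a lack of overlap was found for 14.3% of all tested genes, with 6.92% all higher and 7.41% all lower. *PI*, *SEP2* and *SEP3* were the most abundant of the 10 by mean CPM and *CAL* the least in both genotypes. In pooled inflorescences, fewer cells of a type and less RNA per cell cannot be told apart.

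The mutated genes were read first as a check of the labels. *STK* (AT4G09960) had 10.4, 10.5 and 9.72 CPM in the mutant libraries, against 50.3, 54.3 and 49.7 CPM in wild type, where CPM is the read count scaled to the size of the library. Its log2 fold change was -2.28 (SE 0.09), with an adjusted p of 2.5e-06. *CES*, *BEE1* and *BEE3* had log2 fold changes of -4.03, -1.81 and -2.90, and all 4 genes were called as lower in the mutant, as their labels say. *BEE3* had 0.229, 0.230 and 0 CPM in the mutant libraries, against 4.88, 4.38 and 3.71 CPM in wild type. At such low values its fold change is understated, because 0.5 CPM was added before the logarithm. Between 17.4 and 21.2 M reads (M, 1e6) lay on the listed genes in the mutant libraries and between 15.9 and 21.1 M in wild type. A floor of 3 reads, a chosen mark and not a limit of detection, was 0.137 to 0.173 CPM in the mutant libraries and 0.138 to 0.185 CPM in wild type. The replicates of the mutant correlated across genes with r between 0.9876 and 0.9916, and those of wild type with r between 0.9812 and 0.9914.

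Several of these genes are close copies, and the study assigned reads with RSEM, which divides a read that fits several transcripts among them by estimation. The coding sequences of *SEP1* and *SEP2* were identical at 86.4% of their aligned bases, and those of *AP1* and *CAL* at 84.3%. *AP1* and *CAL* shared a run of 56 identical bases, and *SEP1* and *SEP2* a run of 32. The divergence was greater elsewhere, with 69.0% identity between *AG* and *STK*, 68.5% between *AP1* and *FUL*, 65.8% between *SEP3* and *SEP4* and 61.2% between *AP3* and *PI*. One stretch of 30 bases of the MADS box, which encodes the DNA-binding domain, is shown for each MADS member so that the likeness can be seen. The sequences are from RefSeq's TAIR10.1 assembly, on the coding strand, and capitals mark bases identical to *SEP1*.
SEP1, chr5:5153714-5153743, minus strand: AAGAGGATAGAGAACAAAATCAACAGACAA
SEP2, chr3:466634-466663, minus strand: AAGAGGATAGAGAACAAAATCAACAGACAA
SEP3, chr1:8595809-8595838, minus strand: AAGAGGATAGAGAACAAgATCAAtAGgCAA
SEP4, chr2:1129646-1129675, plus strand: AAGAGGATAGAGAACAAgATCAAtAGACAA
AP1, chr1:25986049-25986078, minus strand: AAGAGGATAGAGAACAAgATCAAtAGACAA
CAL, chr1:9103457-9103486, minus strand: AAGAGGATAGAGAACAAgATCAAtAGACAA
AP3, chr3:20121034-20121063, minus strand: AAGAGGATAGAGAACcAgAcaAACAGACAA
PI, chr5:6829227-6829256, plus strand: AAGAGGATAGAGAACgcAAaCAACAGAgtg
AG, chr4:10383989-10384018, plus strand: AAacGGATcGAGAACAcAAcgAAtcGtCAA
In this stretch *SEP2* was identical to *SEP1* at all 30 bases. *AP1*, *CAL* and *SEP4* held the same 30 bases as each other, 28 of them identical to *SEP1*, while *SEP3* had 27, *AP3* 26, *PI* 24 and *AG* 21. Each stretch lies in a single exon.

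*AP2* is the exception in the model, since it encodes an AP2-domain factor and not a MADS-domain factor. Its messenger RNA carries a site for the microRNA miR172, which limits AP2 activity in the flower. miR172a and the site in *AP2* are shown because *AP2* and its relatives were compared as a group. miR172 itself was not measured in these libraries. Capitals in the microRNA mark its seed (bases 2 to 8). Capitals in the site mark bases exactly complementary to miR172a (A:U or G:C), with a G:U pair counted as a mismatch.
miR172a, chr2:11942918-11942938, minus strand: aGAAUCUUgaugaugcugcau
AP2 site, chr4:17403019-17403039, plus strand: cUGCAGCAUCAUCAgGAUUCU
TOE2 site, chr5:24210889-24210909, plus strand: AUGCAGCAUCAUCAgGAUUCU
TOE1 site, chr2:12226233-12226253, minus strand: caGCAGCAUCAUCAgGAUUCU
The *AP2* site was exactly complementary at 19 of 21 bases and lies within the coding sequence. The site of *TOE2* was complementary at 20 bases and that of *TOE1* at 18. The lower-case g in each of these sites lies opposite a U of the seed, so it is a G:U pair.

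*AP1* (AT1G69120, TAIR10.1 chromosome 1, 25982294 to 25986349) starts flower formation and directs sepal and petal identity. It had 117, 109 and 107 CPM in the mutant libraries, against 105, 93.6 and 89.7 CPM in wild type. Every mutant library lay above every wild-type library, with the lowest mutant value about as far above the highest wild-type value as the closest mutant libraries were from each other. The means were 111 ± 5.05 CPM in the mutant and 96.0 ± 7.74 CPM in wild type (SD, n = 3 each). This gave a log2 fold change of 0.21 (SE 0.09, 95% interval 0.02 to 0.41), with an unadjusted p of 0.0374 and an adjusted p of 0.487 (limma). *AP1* was the only 1 of the 10 genes with an unadjusted p under 0.05, which 9.31% of all tested genes had. In 7 of the 14 alternative settings no member had one, among them scaling to the same total and leaving out mutant replicate 1 or 2 or wild-type replicate 2 or 3.

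*CAL* (AT1G26310, chromosome 1, 9099994 to 9103644) is the close paralogue of *AP1* and acts redundantly with it in the young flower. It had 9.72, 9.38 and 6.14 CPM in the mutant, against 8.46, 7.83 and 5.87 CPM in wild type. Replicate 3 was the lowest of its genotype in both, and the groups overlapped. Its log2 fold change was 0.17 (SE 0.20, 95% interval -0.28 to 0.61; adjusted p = 0.874). Leaving out mutant replicate 3 gave 0.36, and leaving out wild-type replicate 3 gave 0.018. *CAL* rested on 109 to 212 reads per library, the fewest of the 10 genes, and its interval was the widest. The sum of *AP1* and *CAL*, which does not depend on how reads were divided between them, was 126, 118 and 113.2 CPM in the mutant and 113.1, 101 and 95.6 CPM in wild type. The lowest mutant and the highest wild-type sum almost met, and the sum was computed after the values were seen.

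*AP2* (AT4G36920, chromosome 4, 17400610 to 17403469) specifies sepals and petals and represses *AG* in the outer whorls. It had 41.9, 49.1 and 35.1 CPM in the mutant, against 40.4, 39.3 and 35.7 CPM in wild type. The mutant libraries held both the highest and the lowest value. For *AP2* the log2 fold change was 0.11 (SE 0.12, 95% interval -0.16 to 0.39; adjusted p = 0.858), and without mutant replicate 2 it was -0.0030.

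**Figure D1:**
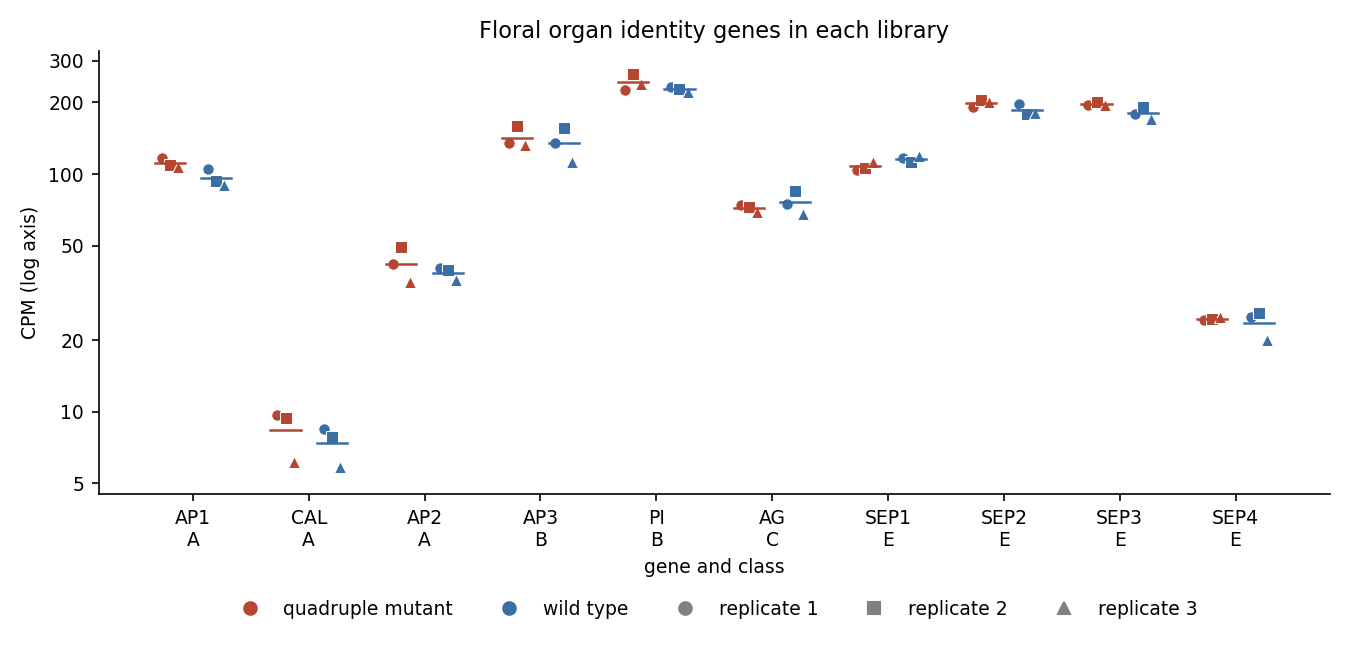
CPM (vertical log axis) of the 10 organ identity genes in each library, with the quadruple mutant left of wild type for each gene, a symbol for each replicate and a line at the mean of 3. The groups overlap for 7 genes. *AP1* and *SEP3* lie higher in the mutant and *SEP1* lower, beside 14.3% of all tested genes that do not overlap.

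The class B genes *AP3* and *PI* encode partners that work only as a pair, and they specify petals and stamens. *AP3* (AT3G54340, chromosome 3, 20119140 to 20121314) had 134, 159 and 132 CPM in the mutant, against 136, 156 and 112 CPM in wild type. Replicate 2 was the highest library in each genotype and replicate 3 the lowest. For *AP3* the log2 fold change was 0.09 (SE 0.13, 95% interval -0.20 to 0.37; adjusted p = 0.904), and without wild-type replicate 3 it was -0.04. *PI* (AT5G20240, chromosome 5, 6828904 to 6831515) had 226, 264 and 239 CPM in the mutant, against 232, 229 and 222 CPM in wild type. Mutant replicate 2 stood above the others, and mutant replicate 1 lay within the wild-type values. For *PI* the log2 fold change was 0.09 (SE 0.09, 95% interval -0.11 to 0.29; adjusted p = 0.833).

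The balance of the B partners was the same on average in both genotypes. The ratio of *PI* to *AP3* in CPM was 1.68, 1.66 and 1.81 in the mutant and 1.71, 1.47 and 1.98 in wild type, with means of 1.72 ± 0.08 and 1.72 ± 0.25 (SD, n = 3 each). The wild-type libraries spanned a wider range than the mutant libraries. The sum of *AP3* and *PI* was 385 ± 33.7 CPM in the mutant and 362 ± 25.8 CPM in wild type.

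*AG* (AT4G18960, chromosome 4, 10382856 to 10388539) specifies stamens and carpels and ends the activity of the floral meristem. It had 74.1, 72.5 and 69.4 CPM in the mutant, against 74.7, 85.2 and 67.8 CPM in wild type. The mutant values lay within the range of the wild-type values. Its log2 fold change was -0.07 (SE 0.10, 95% interval -0.29 to 0.15; adjusted p = 0.896), and without wild-type replicate 2 it was 0.02.

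The nearest relatives of *AG* are *STK* and the valve margin genes *SHP1* and *SHP2*, all of which act with AG in carpels and ovules. *AG*, *SHP1* and *SHP2* summed to 139 ± 8.82 CPM in the mutant and 143 ± 8.24 CPM in wild type, so that the sum without *STK* overlapped between genotypes. With *STK* the sum was 149 ± 9.23 CPM in the mutant and 195 ± 10.6 CPM in wild type. *STK* made up 6.86% of this sum in the mutant and 26.4% in wild type, and *AG* 48.4% in the mutant and 38.9% in wild type. *AG* itself was not higher in the mutant, and its larger share went with the smaller total. *SHP1* had a log2 fold change of 0.09 (adjusted p = 0.860) and *SHP2* of -0.13 (adjusted p = 0.764).

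The *SEP* genes of class E encode the cofactors that join the other MADS-domain factors into complexes in every whorl. *SEP1* (AT5G15800, chromosome 5, 5151334 to 5154253) had 104, 106 and 112.8 CPM in the mutant, against 117, 112.9 and 119 CPM in wild type. Every mutant library lay below every wild-type library, although the highest mutant and the lowest wild-type value were close together. The log2 fold change of *SEP1* was -0.11 (SE 0.08, 95% interval -0.28 to 0.06; adjusted p = 0.748).

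*SEP2* (AT3G02310, chromosome 3, 464279 to 467151), the closest copy of *SEP1*, had 192, 204 and 201 CPM in the mutant, against 196, 179 and 181 CPM in wild type. Wild-type replicate 1 lay above mutant replicate 1, and the groups overlapped. The log2 fold change of *SEP2* was 0.10 (SE 0.08, 95% interval -0.08 to 0.29; adjusted p = 0.781). The sum of *SEP1* and *SEP2*, computed after the values were seen because it does not depend on how reads were divided between the copies, was 296, 310 and 314 CPM in the mutant and 313, 292 and 299.7 CPM in wild type. These sums overlapped, with means of 307 ± 9.41 CPM in the mutant and 301 ± 10.9 CPM in wild type (SD, n = 3 each).

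*SEP3* (AT1G24260, chromosome 1, 8593536 to 8596123) is the member that takes part in most of the known complexes. It had 195.4, 201 and 194.9 CPM in the mutant, against 179, 191 and 171 CPM in wild type. All mutant libraries lay above all wild-type libraries, and the mutant libraries lay closer together than the wild-type libraries. For *SEP3* the log2 fold change was 0.13 (SE 0.08, 95% interval -0.05 to 0.31; adjusted p = 0.697). *SEP4* (AT2G03710, chromosome 2, 1129229 to 1131838), which also acts in the floral meristem, had 24.4, 24.6 and 24.9 CPM in the mutant, against 24.9, 26.0 and 19.97 CPM in wild type. Its log2 fold change was 0.07 (SE 0.11, 95% interval -0.19 to 0.32; adjusted p = 0.920), and without wild-type replicate 3 it was -0.05.

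Within the sum of the *SEP* genes, *SEP1* made up 20.4% ± 0.69 in the mutant and 23.0% ± 1.06 in wild type (SD, n = 3 each). Its share was 19.8% to 21.1% in the mutant libraries and 22.2% to 24.2% in the wild-type libraries, which did not overlap. This share is not separate from the lower *SEP1* values above. It also depends on how reads were divided between *SEP1* and *SEP2*, whose sum overlapped between genotypes. *SEP2* held 37.7% in the mutant and 36.7% in wild type, and *SEP3* 37.3% in the mutant and 35.6% in wild type. *SEP4* held 4.66% in the mutant and 4.67% in wild type, and the libraries overlapped for each of these 3 genes. The sum of the class was 528 ± 10.9 CPM in the mutant and 505 ± 13.4 CPM in wild type and overlapped between genotypes. These shares are given as a description, with no test.

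**Figure D2:**
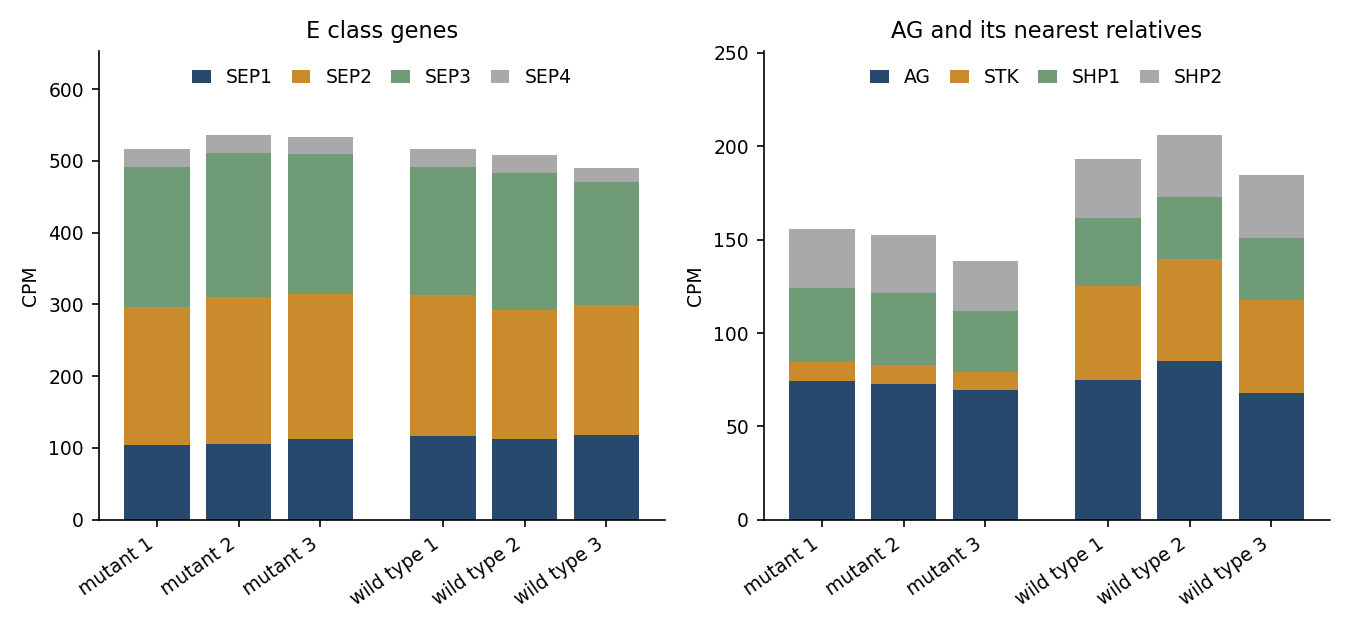
CPM in each library, with the 3 mutant libraries left of the 3 wild-type libraries, stacked for *SEP1* to *SEP4* (left) and for *AG*, *STK*, *SHP1* and *SHP2* (right). The E class sum runs from 516 to 536 CPM in the mutant and 490 to 517 CPM in wild type, while the AG clade sum is 139 to 156 CPM in the mutant and 185 to 206 CPM in wild type, with *STK* the segment that differs most.

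None of the 10 genes passed an adjusted p of 0.05 over all tested genes (limma), and the smallest adjusted p was that of *AP1*. Among all 21287 tested genes 148 were called, which is 0.695%, 28 of them higher in the mutant and 120 lower. The groups did not overlap for 3 of the 10 genes, against 14.3% of all tested genes. For 2 of these, *AP1* and *SEP3*, all mutant values were higher, against 6.92% of all genes, and for *SEP1* all were lower, against 7.41%. With so few genes, these counts are a description.

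Log2 fold changes were above 0 for 8 of the 10 genes and below 0 for *AG* and *SEP1*. Their median was 0.10, beside 0.01 for all tested genes. The median depended on single libraries: it was 0.05 without mutant replicate 2 and 0.04 without wild-type replicate 3, when 7 and 6 of the 10 were above 0. The 95% intervals of the 10 genes covered folds from 0.82 to 1.53, and without *CAL* they covered 0.82 to 1.32. The interval included 0 for every gene except *AP1*.

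**Figure D3:**
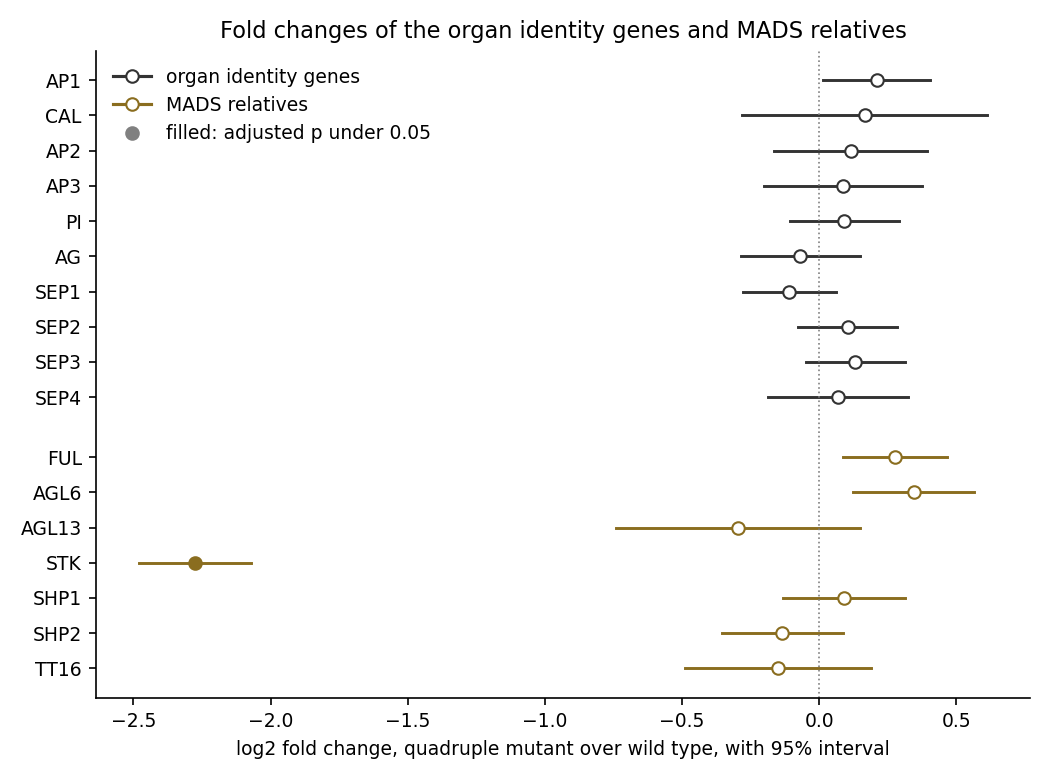
Log2 fold change of the quadruple mutant over wild type (horizontal axis) with its 95% interval for the 10 organ identity genes and 7 MADS relatives. Filled points have an adjusted p under 0.05, which among these only *STK* (-2.28) has; the organ identity genes lie between -0.11 and 0.21.

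To compare levels between genes, CPM was divided by the length of the longest TAIR10.1 transcript in kilobases. On this scale *PI* was the highest at 197 CPM per kb in the mutant and 185 CPM per kb in wild type. *SEP3* followed with 155 in the mutant and 142 in wild type, then *SEP2* with 133 and 124 and *AP3* with 117 and 111, all in CPM per kb with the mutant given before wild type. The ranges of *SEP2* and *AP3* overlapped over the libraries in both genotypes, so their order was not resolved. *AP1* had 71.3 CPM per kb in the mutant and 61.6 in wild type, and *SEP1* had 70.2 in the mutant and 75.7 in wild type. These neighbours overlapped in the mutant, whereas *SEP1* lay above *AP1* in every wild-type library. *AG* (37.2 in the mutant and 39.2 in wild type), *AP2* (23.0 and 21.1), *SEP4* (17.0 and 16.3) and *CAL* (6.79 and 5.97) completed the order without overlap between neighbours.

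The spread between replicates was small for most of the 10 genes. Their median coefficient of variation was 4.35% in the mutant and 7.26% in wild type. For the 16720 tested genes with a mean of at least 5 CPM it was 8.13% in the mutant and 8.96% in wild type. Those genes were not matched to the 10 for level, and counting error falls with level, so this is a description. In wild type the 10 ran from *CAL*, above 28.9% of listed genes, to *PI*, above 97.3%. *SEP4* and *SEP3* varied least in the mutant, with 1.04% and 1.68%. Counting error alone comes to 4.30% to 5.19% for *SEP4* and 1.53% to 1.80% for *SEP3* over the libraries. The *SEP4* value lies below its counting error, so it does not show a steadier gene. *CAL* varied most, with 23.4% in the mutant and 18.3% in wild type. Counting error alone, from 109 reads, comes to 9.58% for the shallowest value of *CAL*, and from 5049 reads to 1.41% for the deepest of *PI*.

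Markers of other cell types were read beside these values, because replicate 2 and replicate 3 of wild type stood apart for several of the genes. *AG*, *AP3*, *SEP3* and *SEP4* were highest in wild-type replicate 2 among the wild-type libraries and lowest in wild-type replicate 3. The 7 listed markers of 8 for the tapetum, the tissue that feeds developing pollen, summed to 196, 260 and 225 CPM in the mutant and 227, 288 and 173 CPM in wild type. As for *AP3*, the tapetum sum was highest in replicate 2 of each genotype and, in wild type, lowest in replicate 3. The tapetum regulators *AMS* and *MS1* were at 36.0 to 44.9 CPM and 4.58 to 6.44 CPM in the mutant, against 33.3 to 50.5 CPM and 4.36 to 8.63 CPM in wild type. *TDF1*, at 0.161 to 0.555 CPM over all libraries, did not pass the filter, and *DYT1* was not analysed here. The 5 markers of mature pollen summed to 3287, 3722 and 3147 CPM in the mutant and 3608, 2726 and 3913 CPM in wild type, and were lowest in wild-type replicate 2 and highest in wild-type replicate 3. The part of these markers in the values of the organ identity genes was not tested.

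**Figure D4:**
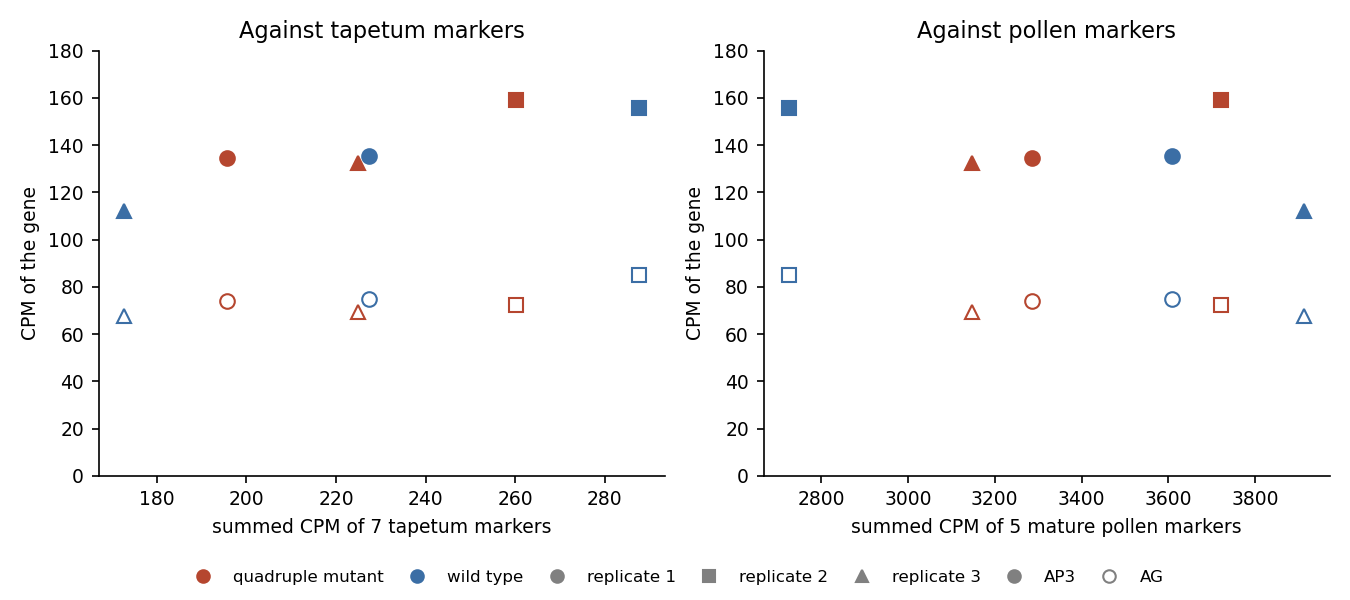
CPM of *AP3* (filled) and *AG* (open) on the vertical axis against the summed CPM of 7 tapetum markers (left) and of 5 mature pollen markers (right), with quadruple mutant libraries in red, wild-type libraries in blue and a symbol for each replicate. Wild-type replicate 2, with *AP3* at 156 CPM, has the highest tapetum sum (288 CPM) and the lowest pollen sum (2726 CPM), and wild-type replicate 3, with *AP3* at 112 CPM, the lowest tapetum sum (173 CPM) and the highest pollen sum (3913 CPM).

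Tested were 6 markers of the tapetum, 5 of pollen, 6 of the carpel, 3 of the meristem and 4 of green tissue. None of the markers was called by limma. An unadjusted p under 0.05 (limma) was found for 2, *SPT* and *WUS*, against 9.31% of all tested genes. The sum of the 6 carpel markers was 102 to 103 CPM in the mutant and 99.0 to 103 CPM in wild type, of the 3 listed meristem markers of 4 it was 93.2 to 129 CPM in the mutant and 102 to 117 CPM in wild type, and of the 4 green tissue markers it was 5696 to 7407 CPM in the mutant and 5887 to 6245 CPM in wild type. The meristem marker *CLV3* was not analysed here. All of these sums overlapped between the genotypes. The carpel sum held 2 genes that did not overlap, named here after their values were seen. *SPT* was higher in every mutant library (log2 fold change 0.22, adjusted p = 0.462). *INO* was lower in every mutant library (log2 fold change -0.29, adjusted p = 0.539). Of all tested genes, 6.92% were all higher and 7.41% all lower.

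Genes that act upstream of the organ identity genes were compared next. Of the 10 genes for floral meristem identity and activation, 9 were listed and tested (*UFO* was not analysed here). None was called by limma. An unadjusted p under 0.05 was found for 2 of the 9, *WUS* and *FD*, against 9.31% of all tested genes. *SOC1*, which promotes flowering, had 51.8 to 64.8 CPM in the mutant and 49.6 to 57.4 CPM in wild type. *WUS*, which maintains the stem cells and activates *AG*, had 20.1, 23.3 and 17.8 CPM in the mutant, against 18.0, 13.9 and 11.6 CPM in wild type. The groups for *WUS* overlapped by a single pair of libraries, and its log2 fold change was 0.49 (adjusted p = 0.344). *SVP*, a repressor of flowering that also keeps class B, C and E genes off in young flowers, had 6.84 to 8.07 CPM in the mutant and 8.26 to 9.15 CPM in wild type, with a log2 fold change of -0.22 (adjusted p = 0.656). The median log2 fold change of the 9 genes was 0.05. Without overlap were 3 of the 9, *SVP*, *FD* and *LMI1*, all lower in the mutant, against 7.41% of all tested genes. *FD* and *LMI1* are named here after their values were seen. Their log2 fold changes were -0.46 (adjusted p = 0.536) and -0.40 (adjusted p = 0.618). With so few genes these counts are a description.

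The 14 regulators that limit or shape *AG*, *AP2* and class B expression were all tested, and none was called by limma. An unadjusted p under 0.05 (limma) was found for 1 of the 14, against 9.31% of all tested genes. The corepressors *LUG* and *LUH*, which keep *AG* out of the outer whorls, had means of 108.5 CPM and 133 CPM in the mutant and 108.4 CPM and 126 CPM in wild type. Their partner *SEU* had 75.1 CPM in the mutant and 80.5 CPM in wild type, with a log2 fold change of -0.10 (adjusted p = 0.783). Log2 fold changes were below 0 for 10 of the 14, beside 10205 of all 21287 tested genes. The median was -0.07, beside 0.01 for all tested genes. Leaving out 1 library reversed *ANT*, *RBE*, *HUA1* and *HEN4* among those 10, and *LUG* and *HUA2* among the others. *ULT1*, chosen here after its values were seen because it was the only 1 of the 14 without overlap, is a trithorax-type activator of *AG* and had 21.5 to 23.8 CPM in the mutant and 24.6 to 32.1 CPM in wild type, with a log2 fold change of -0.31 (adjusted p = 0.415). A count of 1 in 14 is not above the 14.3% of all tested genes without overlap.

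The AP2-type relatives with miR172 sites were *TOE1*, *TOE2*, *TOE3*, *SMZ* and *SNZ*, which delay flowering. All 5 were tested and none was called by limma, with 1 at an unadjusted p under 0.05. That gene was *TOE1*, with 2.84, 2.53 and 2.37 CPM in the mutant, against 4.00, 3.82 and 4.95 CPM in wild type. Its values did not overlap, and the log2 fold change was -0.62 (adjusted p = 0.188). *SNZ*, named here after its values were seen, did not overlap in the other direction. It had 0.917, 0.920 and 1.06 CPM in the mutant, against 0.736, 0.493 and 0.646 CPM in wild type. The log2 fold change of *SNZ* was 0.39 (adjusted p = 0.617). Of all tested genes, 14.3% did not overlap and 9.31% had an unadjusted p under 0.05, so these counts among 5 genes are a description. *TOE2* had a log2 fold change of 0.16 (adjusted p = 0.757) and *TOE3* of -0.01 (adjusted p = 0.992). Of the genes whose sites are printed above, *AP2* and *TOE2* thus had values above 0 and *TOE1* below, and none passed the test.

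Of the 8 MADS relatives, 7 were tested and *STK* was the only 1 called (*AGL63* was not analysed here). *FUL*, the nearest relative of *AP1* and *CAL*, had 85.8, 81.9 and 84.3 CPM in the mutant, against 72.4, 63.1 and 72.4 CPM in wild type. All mutant libraries lay above all wild-type libraries, and the log2 fold change was 0.28 with an SE of 0.08 (adjusted p = 0.281). *AGL6*, a relative of the *SEP* genes chosen here after its values were seen, had 31.5, 33.9 and 28.2 CPM in the mutant, against 25.7, 24.0 and 23.5 CPM in wild type. It did not overlap either, and its log2 fold change was 0.34 with an SE of 0.10 (adjusted p = 0.243). *AGL13*, the sister gene of *AGL6*, did not overlap in the other direction, with 1.05, 0.920 and 0.957 CPM in the mutant, against 1.24, 1.66 and 1.08 CPM in wild type and a log2 fold change of -0.30 (adjusted p = 0.733). It too was chosen after its values were seen. With *STK* the 7 tested genes thus held 2 all higher and 2 all lower, against 6.92% and 7.41% of all tested genes. An unadjusted p under 0.05 (limma) was found for 3 of the 7, *STK*, *FUL* and *AGL6*, against 9.31% of all tested genes. In so short a list these counts are a description.

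Genes known to be controlled by the class B and C proteins showed no call by limma. An unadjusted p under 0.05 (limma) was found for 1 of 10 tested genes, against 9.31% of all tested genes. All 6 tested genes that these proteins activate had log2 fold changes below 0, with a median of -0.20, beside 10205 of all 21287 tested genes below 0. The groups overlapped for every one of them, and the shared direction did not hold without single libraries. Leaving out 1 library gave 0.49 for *DAD1* (mutant replicate 2), 0.052 for *CRC* (wild-type replicate 1) and 0.044 for *ATH1* (mutant replicate 3), and the mean CPM of *DAD1* was higher in the mutant (1.57) than in wild type (1.29). *NAP*, a NAC factor activated by AP3 and PI, had 33.3, 18.1 and 38.2 CPM in the mutant, against 45.7, 34.3 and 48.0 CPM in wild type. Mutant replicate 2 was its lowest library, and its log2 fold change was -0.56 (adjusted p = 0.536), or -0.24 without that library. *CRC*, a carpel and nectary gene downstream of AG, had a log2 fold change of -0.04 (adjusted p = 0.954), and *ATH1* of -0.11 (adjusted p = 0.899). The 4 tested genes that class B proteins repress had 2 log2 fold changes above 0 and 2 below. Neither *KNU* nor *BNQ3* was analysed here.

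**Figure D5:**
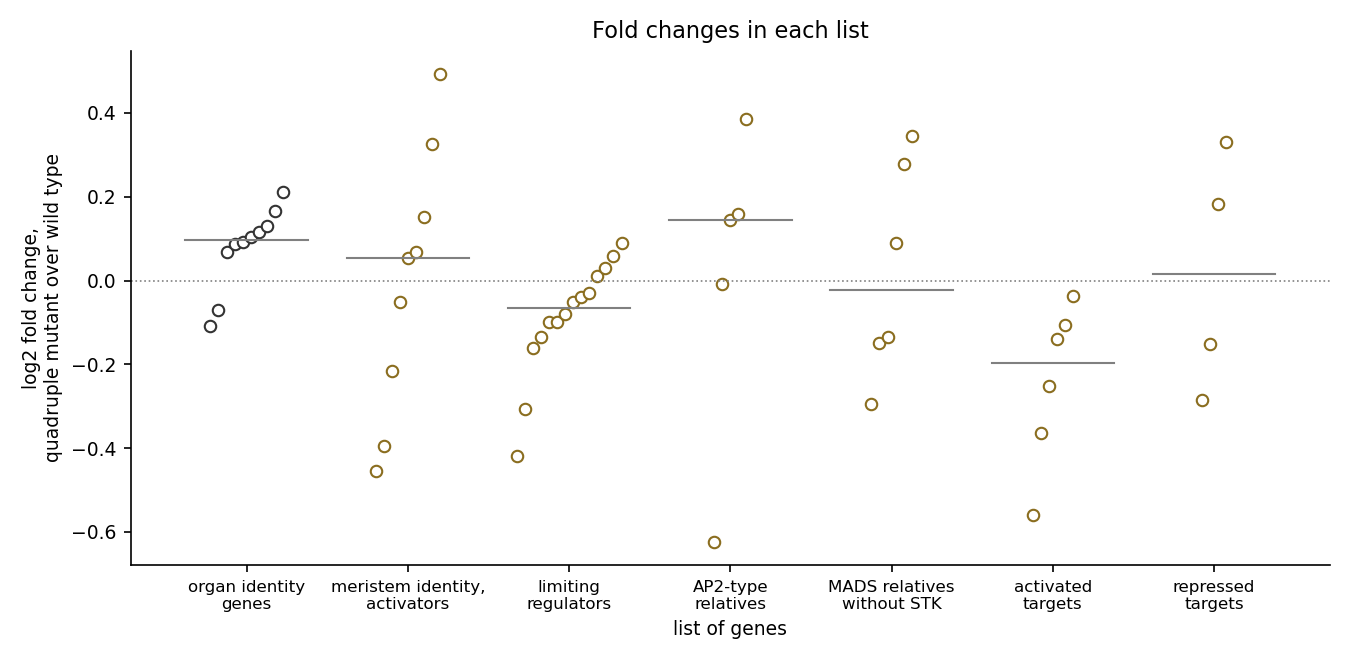
Log2 fold change of the quadruple mutant over wild type (vertical axis) for every tested gene of each list, 1 circle a gene, with a line at the median of those drawn; *STK* is left out of the MADS relatives. No gene drawn has an adjusted p under 0.05. The 10 organ identity genes span -0.11 to 0.21, a narrower range than the upstream genes (-0.46 to 0.49). The lists were not matched for level.

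For each organ identity gene, the gene with the most similar values was sought among the other 9 and the upstream genes, limiting regulators, AP2-type relatives, MADS relatives and targets, 54 candidates in all; the cell type markers were not searched. Likeness was the root mean square difference of log2 values over the 6 libraries, each gene centred on its mean, so a small value means a similar pattern. *SEP2* was nearest to *PNY* (0.04) and *PI* to *SEP2* (0.05). *SEP1* was nearest to *TFL2* (0.05), *AG* to *SEU* (0.06), *SEP4* to *LUG* (0.06), and *SEP3* and *AP3* to *LUH* (0.07 and 0.10). *AP1* was nearest to *SHP1* (0.09), *AP2* to *SOC1* (0.09) and *CAL* to *BNQ1* (0.11). The 6 libraries hold only 2 genotypes, and for genes that vary little the measure is small by construction, so these pairs are a description.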

How the data were processed

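Poly(A) RNA of inflorescences was sequenced as directional libraries in 3 replicates of the quadruple mutant and 3 of wild type. The authors mapped the reads to TAIR10 with bowtie2 and estimated expression with RSEM (versions not given in the sources used here). The values the authors deposited are CPM scaled to an effective library size, not logged. The deposited table also holds the authors' edgeR comparison (log2 fold change, p-value and FDR), which was not used. Of its 21801 rows 2 without values were left out, and 0 columns of per-sample values were unused. Low values were spaced by the CPM of 1 read, and 93.6% to 94.8% of those below 1 CPM came out whole within 0.1 read, so no counts were rebuilt, no count test was run, and depth was derived from that spacing.

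The test was limma-trend (limma 3.58.1, R 4.3.3) on log2(CPM + 0.5) for the 21287 genes above 0.5 CPM in at least 3 samples, with Benjamini-Hochberg adjustment over all of them and calls at an adjusted p under 0.05. Fold changes on this scale understate changes of low genes. The procedure was tested on simulated data. Nothing in the sources says more of the replicates than that they were separate pools, so p-values measure the spread between pools. The floor of 3 reads covers counting error only.

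The members, lists and tests were chosen with earlier results of these data known. Named were all 10 members, in each list every gene called and the 3 with the highest mean CPM, the 4 mutated genes, and the nearest gene to each member; exceptions are stated where they occur. Positions and sequences are from TAIR10.1 (RefSeq), and the deposited table holds no coordinates. The pseudocount, filter, scaling, variance trend, a replicate block and leaving out each library were varied.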

Additional observations from a re-analysis of the deposited data

How the results depend on the processing

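The count of organ identity genes called was 0 under each of the 14 alternatives, and *STK* was the 1 gene called in the lists under each. With the replicate number as a replicate block, 64 genes were called over all tested genes in place of 148, and 0 of the organ identity genes. Across all tested genes, deviations from the genotype mean in libraries with the same number had r of -0.107, -0.155 and -0.102. Pairs with different numbers had r from -0.156 to 0.25. The deviations cancel within each genotype, which ties these values to each other. Whether libraries with the same number share more than that number was not tested. Leaving out 1 library gave 61 (without wild-type replicate 1) to 159 (without wild-type replicate 2) genes called over all. Of the organ identity genes, 136 of 140 values kept their direction, and 6 genes kept it throughout. The other 4 reversed when 1 library was left out, with log2 fold changes from -0.0030 to 0.24 for *AP2*, -0.15 to 0.016 for *AG*, -0.038 to 0.20 for *AP3* and -0.047 to 0.14 for *SEP4*. Of the list genes, 604 of 628 values kept their direction. Scaling the columns to the same total gave -0.011 for *LUG*, and leaving out 1 library gave -0.12 to 0.10 for it. Ranges that crossed 0 when 1 library was left out were -0.090 to 0.24 for *LFY*, -0.28 to 0.16 for *RBE*, -0.11 to 0.069 for *HEN4*, -0.096 to 0.24 for *PAN*, -0.059 to 0.069 for *TOE3*, -0.78 to 0.49 for *DAD1*, -0.27 to 0.13 for *AGL24*, -0.060 to 0.12 for *HUA2*, -0.21 to 0.044 for *ATH1*, -0.25 to 0.029 for *GNC*, -0.13 to 0.042 for *HUA1*, -0.088 to 0.052 for *CRC* and -0.11 to 0.0997 for *ANT*. None of these genes was called, and the cause of each reversal was not tested. The adjusted p of *AP1* lay between 0.423 and 0.901. Depth limited *CAL* most, with 109 reads in its shallowest library, and 3 replicates limit what the intervals can show.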
